A study of Danio rerio with 8 samples.

Results

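The sarcoplasmic reticulum calcium cycling genes were taken by symbol from a list of 10: *ryr2a*, *ryr2b*, *atp2a2a*, *atp2a2b*, *casq2*, *casq1b*, *slc8a1a*, *pln*, *trdn* and *srl*. Of the 31388 genes in the deposited table, 8 answered to exactly 1 of these symbols, and 2 more were candidates for *casq1b*. *pln* was the gene that the annotation names *pln1* (ENSDARG00000069404). *atp2a2b* was taken to be ENSDARG00000005122, the only other gene carrying the name ATP2A2 once *atp2a2a* (ENSDARG00000029439) had been assigned. The genes named CASQ1 (ENSDARG00000018105 and ENSDARG00000038716) could not be told apart as *casq1a* and *casq1b*, so both are given by identifier. No entry was matched to *ryr2a*, which was not analysed here.

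The sarcoplasmic reticulum is the calcium store of the heart muscle cell. At each beat, calcium that enters through the L-type channel opens ryanodine receptors in the membrane of the store, the released calcium starts contraction, and relaxation follows as the SERCA pump returns calcium to the store and the sodium-calcium exchanger carries the rest out of the cell. Calsequestrin and sarcalumenin bind calcium or stabilise the pump inside the store, triadin ties calsequestrin to the ryanodine receptor, and phospholamban holds the pump back until it is phosphorylated. In zebrafish, several of these genes exist as pairs of copies, and a level is given for each entry that could be matched.

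RNA-Seq was performed on ventricular cardiomyocytes of adult zebrafish, 6 to 9 months old, that carried both *tbx5a:GFP* and *myl7:nuc-dsRed*. Cells positive for GFP and nuc-dsRed were collected as *tbx5a*+ cardiomyocytes, and cells positive for nuc-dsRed alone as *tbx5a*- cardiomyocytes. Replicates 2, 8, 9 and 10 were pools of 5 hearts. Each number labels 1 *tbx5a*+ and 1 *tbx5a*- library, and libraries with the same number were taken to be a pair from 1 pool, which gives 4 pairs. GFP was driven by a bacterial artificial chromosome with the *tbx5a* regulatory elements and nuc-dsRed by *myl7*, both groups carried both transgenes, and the cells had been dissociated with enzymes in low-calcium Tyrode's solution with 2,3-butanedione monoxime, an inhibitor of contraction, before sorting. The experiment compared the transcripts of the 2 populations, and the values below follow the genes of the calcium store through that comparison.

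Estimated reads came to 8076567 to 9491738 in *tbx5a*+ libraries and to 7149201 to 9203795 in *tbx5a*- libraries, and genes above 0 numbered 13706 to 14983 in *tbx5a*+ libraries and 11329 to 13793 in *tbx5a*- libraries, with the fewest in the *tbx5a*- libraries of replicates 9 (11329) and 2 (12225). *tbx5a* itself had a normalised value of 4132 ± 917 in *tbx5a*+ and of 249.5 ± 172 in *tbx5a*- cells (SD, *n* = 4 libraries each), with a log2 fold change of 4.32 (adjusted *p* = 8.7e-08, limma). Summed cardiomyocyte markers were at 371400 to 431500 in *tbx5a*+ and at 367900 to 451900 in *tbx5a*- libraries, and 1 of the 12 tested (*vmhc*) was called lower in *tbx5a*+ cells. Among the markers of other cell types, the 12 smooth muscle genes summed to 172.1 to 511.9 in *tbx5a*+ and to 559.3 to 2848 in *tbx5a*- libraries. Most of each sum came from *tagln* and *acta2*, and these 2 of the 5 tested were called lower in *tbx5a*+ cells. With *cnn1b*, 3 of the 5 were lower at an unadjusted *p* of 0.05 or less (limma, background 2.44%), and the list median was -2.43. *cnn1b* reached 47.0 in *tbx5a*+ and 170.7 in *tbx5a*- libraries, and *notch3* 15.3 and 60.5. RGS5 was at 0 in every library, *elnb* and the MYLK and LMOD1 genes reached at most 11.9, and the MYH11 genes at most 48.1. The skeletal muscle genes summed to 15260 to 23420 in *tbx5a*+ and to 12180 to 18060 in *tbx5a*- libraries, nearly all from *ckma*. *myhz1.2*, *pvalb1*, MYOG and both TNNT3 genes were at 0 throughout. Of the 4 tested, 1 (*ckmb*) was higher in *tbx5a*+ cells at an unadjusted *p* of 0.05 or less (limma, background 4.62%), and none was called. Endothelial genes summed to 114.5 to 232.8 in *tbx5a*+ and to 109.1 to 337.4 in *tbx5a*- libraries. The sums were 106.8 to 198.8 and 53.09 to 527.0 for fibroblast and epicardial genes. For leukocyte genes they were 24.86 to 97.87 and 2.37 to 248.9. The highest of each sum was in *tbx5a*- replicate 2, and no gene of these lists was called. Of the atrial list, 1 of 5 tested genes (*smtnl1*) was higher in *tbx5a*+ cells at an unadjusted *p* of 0.05 or less (limma, background 4.62%). The atrial list median was 0.994, and none of its genes was called. *myh6* reached 295.8 in *tbx5a*+ and 370.6 in *tbx5a*- libraries, both in replicate 2. No gene of the erythroid and conduction lists was called. The part of these other cells in the values below was not tested. Each library is RNA from many cells, so that fewer cells with a transcript and less of it per cell cannot be told apart.

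Values are given in normalised units, in which 1 read was worth 0.859 to 1.186. They are not divided by transcript length, so the levels of different genes are not ranked against each other. Each fold change is the difference of the mean log2(value + 1), *tbx5a*+ minus *tbx5a*-, with its 95% interval from limma. Calls required a *p* of 0.05 or less after Benjamini-Hochberg adjustment over all 13895 tested genes, together with a log2 fold change whose size was 1 or more, and 27 genes (0.194%) met this, of which 1, *tbx5a* itself, was higher (0.0072%) and 26 were lower (0.187%) in *tbx5a*+ cells.

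The fitted folds of the 8 genes with 1 entry, *tbx5a*+ over *tbx5a*-, ran from 1.02 for *pln* and *trdn* to 1.45 for *srl*. All 8 were tested and none was called (limma, adjusted *p* between 0.62 and 0.99). At an unadjusted *p* of 0.05 or less, limma gave 2 of the 8, the release channel *ryr2b* and the store protein *srl*, both higher in *tbx5a*+ cells, against 7.06% of all tested genes at this threshold and 4.62% that were higher. With the replicate number as a block 0 were called (background 0.417%) and 4 had an unadjusted *p* of 0.05 or less, which added *casq2* and *slc8a1a*, all higher in *tbx5a*+ cells (background 9.23%, and 6.28% for higher alone). With limma-voom 0 were called (background 0.173%), and 3 had such a *p*, all higher (background 5.2%).

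All 8 log2 fold changes were above 0, between 0.03 and 0.54, with a median of 0.24. This stood beside a median of 0.20 over all tested genes, 61.3% of which had a fold change above 0. With upper quartile scaling both medians moved up, to 0.43 for the 8 genes and 0.375 for all genes, and the single genes stood between the 40.4th percentile (*pln*) and the 65.9th (*srl*) of all fold changes as deposited. The distance between the medians changed with the pseudocount and with the *tbx5a*- libraries that were left out. With a pseudocount of 5 the median of the 8 genes was 0.239, against 0.13 for all genes. With one of 0.5 it was 0.24, against 0.225. Without *tbx5a*- replicates 2 and 9 the median of the 8 genes was 0.31, against 0.04 for all genes, and without *tbx5a*- replicate 2 alone it was 0.305, against 0.16. Without *tbx5a*- replicate 9 alone, the library with the fewest genes above 0, it was 0.198, against 0.129. Without *tbx5a*- replicate 8 alone it was 0.31, against 0.21. The 95% intervals of all 8 lay within a log2 fold change of 1 in either direction, and 4 of the 8 were higher in 4 of 4 pairs, against 9.54% of all tested genes. No gene had groups that did not overlap (background 2.32% for higher and 1.65% for lower values in *tbx5a*+ cells). Together the 8 genes took 1.42%, 1.08%, 1.07% and 1.21% of the total value of *tbx5a*+ libraries of replicates 2, 8, 9 and 10, against 1.23%, 1.098%, 0.985% and 1.15% in the *tbx5a*- libraries.

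**Figure D1:**
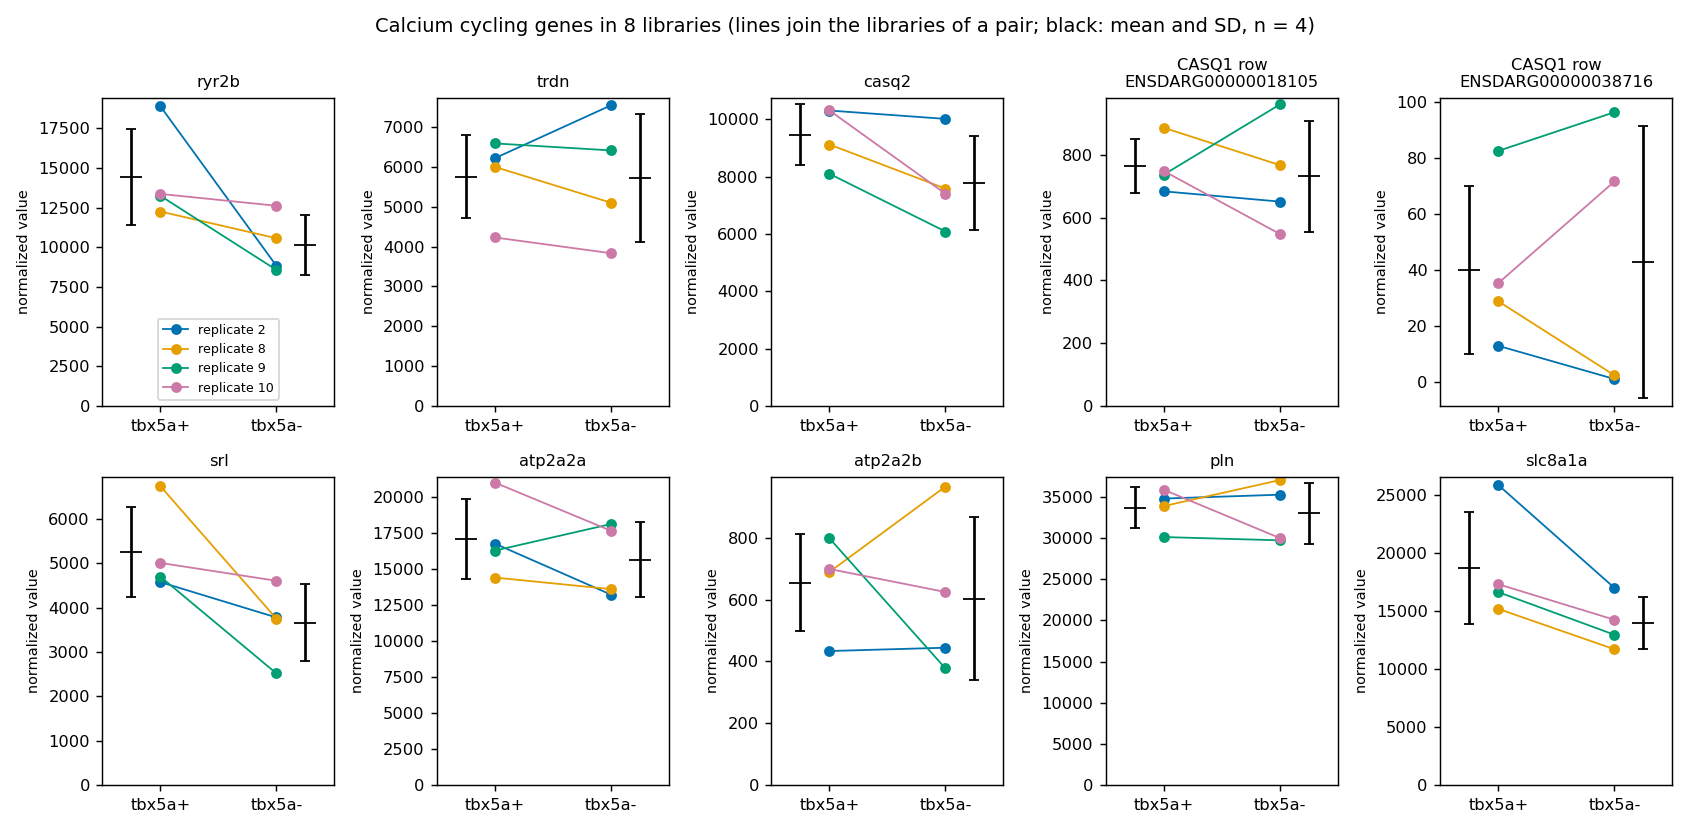
Normalised value (y axis, linear) of each calcium cycling gene in the *tbx5a*+ libraries (left) and *tbx5a*- libraries (right). Coloured points and lines are the 4 pairs, and black bars are the mean and SD (*n* = 4). In every panel the populations overlap, and in *ryr2b*, *casq2*, *srl* and *slc8a1a* all 4 lines slope the same way, with *tbx5a*+ the higher end.

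Of the release machinery, *ryr2b* (ENSDARG00000003706) encodes the cardiac ryanodine receptor, the channel through which the store empties. Its normalised value was 18884, 12254, 13243 and 13365 in *tbx5a*+ libraries of replicates 2, 8, 9 and 10, against 8824, 10569, 8571 and 12616 in *tbx5a*- libraries. The *tbx5a*+ library of each pair was the higher one, but *tbx5a*+ replicate 8 lay below *tbx5a*- replicate 10, so that the groups overlapped. Replicate 2 held both the highest of all values and the widest pair, at 1.097 on the log2 scale, while replicate 10 differed by only 0.08. Means were 14440 ± 3006 in *tbx5a*+ and 10150 ± 1871 in *tbx5a*- cells (mean ± SD of 4 libraries each), a log2 fold change of 0.51 (0.10 to 0.91) that did not pass the adjusted test (unadjusted *p* = 0.0166, adjusted *p* = 0.62 from limma, and adjusted *p* = 0.21 with the block). This fold change was at the 64.7th percentile of all tested genes. Leaving out *tbx5a*+ replicate 2 gave 0.37, and leaving out *tbx5a*- replicates 2 and 9, the libraries with the fewest genes above 0, gave 0.30.

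*trdn* (ENSDARG00000041779), which encodes triadin, the anchor between calsequestrin and the release channel, had values of 6219, 5999, 6589 and 4228 in *tbx5a*+ libraries and of 7545, 5101, 6414 and 3834 in *tbx5a*- libraries. Replicate 10 was the lowest in both populations, and the *tbx5a*- library of replicate 2 was the highest of all. The means of 5759 ± 1049 in *tbx5a*+ and 5724 ± 1608 in *tbx5a*- cells (mean ± SD of 4 libraries each) differed by a log2 fold change of 0.03 (-0.41 to 0.48), less than the spread between libraries of either population (adjusted *p* = 0.98 from limma). Its sign turned with median-ratio scaling, to -0.03, and its widest move was to 0.36 without *tbx5a*- replicates 2 and 9.

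Of the calcium-binding proteins of the store, *casq2* (ENSDARG00000008982, named CASQ2 in the annotation used) encodes the cardiac calsequestrin. It was at 10307, 9122, 8101 and 10310 in *tbx5a*+ libraries, against 10016, 7584, 6086 and 7406 in *tbx5a*- libraries. Each *tbx5a*+ library was above its partner, by 0.04 on the log2 scale in replicate 2 and by 0.48 in replicate 10, but *tbx5a*- replicate 2 lay within the *tbx5a*+ range. The mean was 9460 ± 1065 in *tbx5a*+ and 7773 ± 1638 in *tbx5a*- cells (mean ± SD of 4 libraries each), with a log2 fold change of 0.30 (-0.10 to 0.69) and an adjusted *p* of 0.75 (limma). It was 0.19 without *tbx5a*- replicate 9.

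The CASQ1 genes are copies of the calsequestrin that is known from skeletal muscle in mammals. ENSDARG00000018105 had values of 684.1, 886.6, 737.6 and 748.7 in *tbx5a*+ libraries and of 651.4, 767.7, 961.2 and 548.1 in *tbx5a*- libraries. The highest and the lowest value were both from *tbx5a*- cells, and the log2 fold change was 0.09 (-0.41 to 0.58; adjusted *p* = 0.97 from limma). ENSDARG00000038716 was close to its detection limit in some libraries, with 12.9, 28.8, 82.5 and 35.3 in *tbx5a*+ libraries and 1.05, 2.37, 96.3 and 71.6 in *tbx5a*- libraries. The first of these *tbx5a*- values corresponds to about 1 read. Its means were 39.9 ± 29.9 in *tbx5a*+ and 42.8 ± 48.5 in *tbx5a*- cells (mean ± SD of 4 libraries each), 2 pairs went each way, and the fitted log2 fold change of 1.17 had an interval from -1.31 to 3.65 (adjusted *p* = 0.85), so that no direction was detectable.

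*srl* (ENSDARG00000104587) encodes sarcalumenin, a calcium-binding glycoprotein of the store. Its values were 4578, 6743, 4701 and 5012 in *tbx5a*+ libraries, against 3780, 3750, 2516 and 4608 in *tbx5a*- libraries. *tbx5a*- replicate 10 was just above *tbx5a*+ replicate 2, and this was the only crossing of the groups, while the pairs of replicates 8 and 9 were 0.85 and 0.90 apart on the log2 scale. The mean was 5258 ± 1006 in *tbx5a*+ and 3663 ± 862 in *tbx5a*- cells (mean ± SD of 4 libraries each). The log2 fold change of 0.54 (0.11 to 0.96) was the largest among the 8 genes and did not pass the adjusted test (unadjusted *p* = 0.0157, adjusted *p* = 0.62 from limma, and adjusted *p* = 0.18 with the block). It was at the 65.9th percentile of all tested genes, and came to 0.32 without *tbx5a*- replicates 2 and 9. In a two-sided exact permutation test of the 4 *tbx5a*+ against the 4 *tbx5a*- libraries, *ryr2b* and *srl* each gave *p* = 0.0571, where 0.0286 is the smallest possible. Over all alternatives run, the adjusted *p* of limma was 0.21 to 0.95 for *ryr2b* and 0.18 to 0.95 for *srl*.

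Of the reuptake machinery, *atp2a2a* (ENSDARG00000029439) encodes the cardiac SERCA pump. Values were 16784, 14423, 16298 and 21029 in *tbx5a*+ libraries, and 13237, 13619, 18148 and 17679 in *tbx5a*- libraries. *tbx5a*+ replicate 10 was the highest, and in replicate 9 the *tbx5a*- library was above its partner. The means of 17130 ± 2789 in *tbx5a*+ and 15670 ± 2602 in *tbx5a*- cells (mean ± SD of 4 libraries each) gave a log2 fold change of 0.13 (-0.27 to 0.53; adjusted *p* = 0.91 from limma).

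The second copy, *atp2a2b* (ENSDARG00000005122), was at 433.4, 689.1, 798.3 and 698.9 in *tbx5a*+ libraries and at 444.1, 965.7, 377.0 and 624.4 in *tbx5a*- libraries. Among the *tbx5a*- libraries, replicate 8 was the highest of all 8 and replicate 9 the lowest, and the pairs were split 2 against 2. The means were 654.9 ± 156 in *tbx5a*+ and 602.8 ± 264 in *tbx5a*- cells (mean ± SD of 4 libraries each). The log2 fold change was 0.18 (-0.42 to 0.78; adjusted *p* = 0.92 from limma) and turned to -0.28 without *tbx5a*- replicates 2 and 9. Reads that match both copies were divided between them by the estimation of the authors, so the share of each copy is less certain than their sum.

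*pln* (ENSDARG00000069404) encodes phospholamban, the small membrane protein that inhibits the pump. It was at 34832, 33921, 30149 and 35898 in *tbx5a*+ libraries, against 35300, 37080, 29749 and 30023 in *tbx5a*- libraries. This was the steadiest of the 8 genes, with a coefficient of variation of 7.42% among *tbx5a*+ and 11.2% among *tbx5a*- libraries, and the *tbx5a*+ range lay inside the *tbx5a*- range. The mean was 33700 ± 2501 in *tbx5a*+ and 33040 ± 3713 in *tbx5a*- cells (mean ± SD of 4 libraries each), and the log2 fold change of 0.03 (-0.36 to 0.42; adjusted *p* = 0.98 from limma) turned to -0.03 with median-ratio scaling. Another gene that the annotation names as phospholamban, *pln2* (ENSDARG00000097256), lies outside the list and was added after its values had been seen. It was at 564.4, 416.6, 314.5 and 365.7 in *tbx5a*+ libraries and at 446.3, 283.1, 180.2 and 377.9 in *tbx5a*- libraries, with a log2 fold change of 0.41 (-0.24 to 1.06; adjusted *p* = 0.77 from limma).

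Of calcium extrusion, *slc8a1a* (ENSDARG00000013422) encodes the cardiac sodium-calcium exchanger, whose loss in zebrafish embryos is known to make the heart fibrillate. Its values were 25844, 15171, 16617 and 17298 in *tbx5a*+ libraries, against 16982, 11692, 12945 and 14234 in *tbx5a*- libraries. Each *tbx5a*+ library was above its partner, by 0.28 to 0.61 on the log2 scale and most in replicate 2. The SD over the 4 pairs was 0.14. Replicate 2 was the highest in both populations, and its *tbx5a*- library lay above the *tbx5a*+ libraries of replicates 8 and 9. The mean was 18730 ± 4823 in *tbx5a*+ and 13960 ± 2264 in *tbx5a*- cells (mean ± SD of 4 libraries each), a log2 fold change of 0.41 (-0.01 to 0.82). The unadjusted *p* was 0.0553 without the block and 0.00756 with it, and the adjusted *p* was 0.71 and 0.31 (limma), so the gene was not called in either fit, and over all alternatives the adjusted *p* was 0.31 to 0.95. The fold change was 0.24 without *tbx5a*+ replicate 2. The other gene named SLC8A1 (ENSDARG00000043406) was listed at 0 in all 8 libraries.

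**Figure D2:**
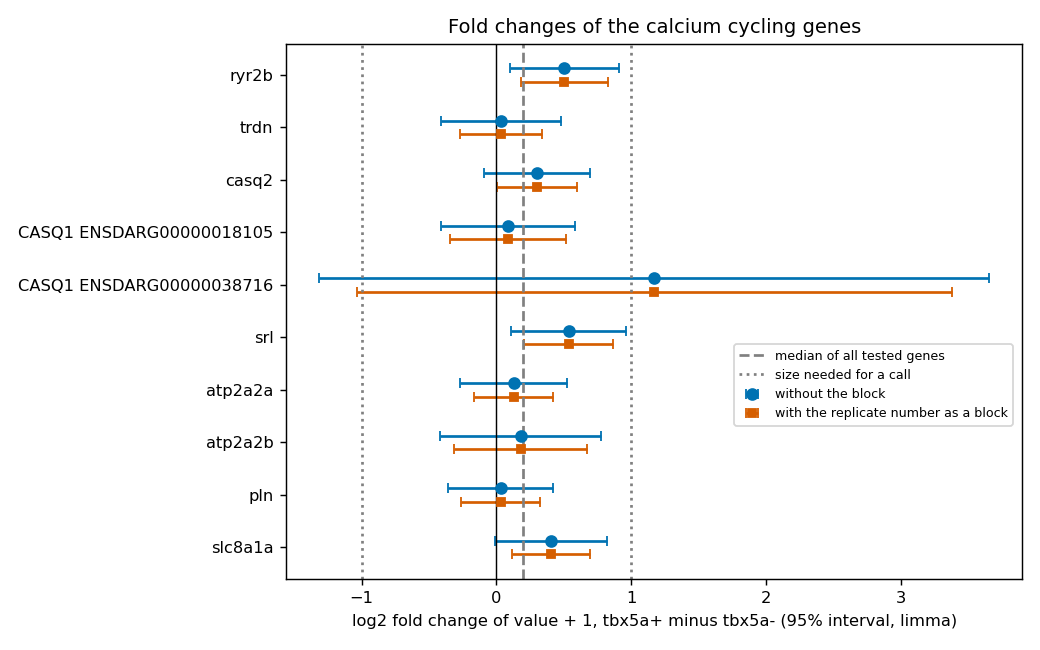
Log2 fold change (x axis, *tbx5a*+ minus *tbx5a*-) of each calcium cycling gene (y axis) with its 95% interval, without the replicate block (circles) and with it (squares). All 8 genes with 1 entry lie right of 0 and within the dotted lines at -1 and 1 that a call requires, around the dashed median of all tested genes at 0.20.

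The balance between partners was compared as the log2 ratio of their values within a library, which does not depend on the scaling between libraries. The ratio of *pln* to *atp2a2a*, inhibitor to pump, was 1.05, 1.23, 0.89 and 0.77 in *tbx5a*+ libraries of replicates 2, 8, 9 and 10, against 1.42, 1.45, 0.71 and 0.76 in *tbx5a*- libraries. It was lower in *tbx5a*+ cells in replicates 2 and 8 and near equal or higher in the others, with a mean difference of -0.10 (two-sided exact permutation test, *p* = 0.69, adjusted *p* = 0.86 over 5 ratios). The ratio of *atp2a2a* to *atp2a2b* averaged 4.73 ± 0.44 in *tbx5a*+ and 4.78 ± 0.73 in *tbx5a*- libraries (mean ± SD of 4 each; exact permutation *p* = 0.94). On the linear scale the value of *atp2a2a* was 14.1 to 48.0 times that of *atp2a2b* over the 8 libraries, without a correction for transcript length.

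The ratio of *casq2* to the summed CASQ1 genes was 3.55 ± 0.29 in *tbx5a*+ and 3.33 ± 0.60 in *tbx5a*- libraries (mean ± SD of 4 each; exact permutation *p* = 0.57). In 8 of 8 libraries *casq2* had the larger value, by 5.75 to 15.3 times before any correction for length. The ratio of *atp2a2a* to *slc8a1a*, the pump to the exchanger, was -0.62, -0.07, -0.03 and 0.28 in *tbx5a*+ libraries, against -0.36, 0.22, 0.49 and 0.31 in *tbx5a*- libraries. It was lower in *tbx5a*+ cells in 4 of 4 pairs, by 0.28 on average, but the groups overlapped (exact permutation *p* = 0.37, adjusted *p* = 0.86). The ratio of *casq2* to *trdn* was 0.73 ± 0.41 in *tbx5a*+ and 0.46 ± 0.43 in *tbx5a*- libraries (mean ± SD of 4 each) and was higher in *tbx5a*+ cells in 4 of 4 pairs (exact permutation *p* = 0.4). For either of these last ratios, an exact sign-flip test of the 4 pair differences gave the smallest *p* that 4 pairs allow, which is above 0.05. The pair differences of *casq2* to *trdn* were 0.32, 0.03, 0.37 and 0.34 in replicates 2, 8, 9 and 10 (mean 0.27, SD 0.16). Those of *atp2a2a* to *slc8a1a* were -0.26, -0.29, -0.515 and -0.03 (mean -0.28, SD 0.20). The permutation test sets the pairs aside. With 1 library left out in turn, the difference between the populations ran from 0.08 to 0.43 for *casq2* to *trdn* and from -0.45 to -0.105 for *atp2a2a* to *slc8a1a*.

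**Figure D3:**
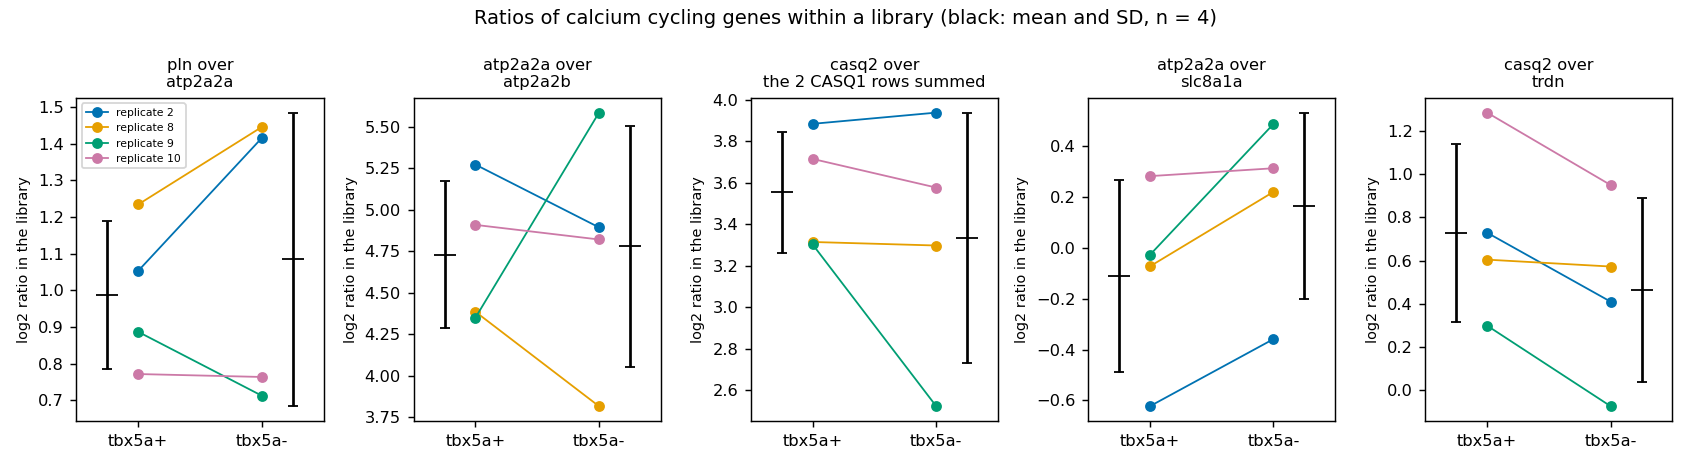
Log2 ratio of calcium cycling genes within a library (y axis, a separate range in each panel) in *tbx5a*+ (left) and *tbx5a*- libraries (right), with the 4 pairs as coloured lines and the mean and SD in black (*n* = 4). The ratios of *atp2a2a* to *slc8a1a* and of *casq2* to *trdn* run one way in 4 of 4 pairs, and the ranges of the populations overlap in all 5 panels.

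Across the 8 libraries, the log2 values of some genes moved together. Pearson's *r* was 0.74 between *ryr2b* and *slc8a1a*, 0.74 between *casq2* and *slc8a1a*, and 0.66 between *casq2* and *pln*, and the most negative was -0.54, between *trdn* and *atp2a2a*. These libraries share pools, scaling and the 2 populations, and the values are given as a description. The median coefficient of variation of the 8 genes was 18.6% among *tbx5a*+ and 19.8% among *tbx5a*- libraries, and it was not computed over all tested genes. The genes whose pattern over the 8 libraries was most like that of *atp2a2a* were NKX2-5 (ENSDARG00000018004, a cardiac homeobox factor; *r* = 0.97), *ubap2b* (*r* = 0.95) and *tgm1l1* (*r* = 0.95). Their rank correlations (Spearman) were 0.81, 0.905 and 0.976. Such genes were picked as the highest of all tested genes over only 8 libraries, and their likeness was not tested. For *pln* they were *tprn* (*r* = 0.97), *si:ch211-214j8.15* (*r* = 0.95) and METRNL (*r* = 0.95), with low mean values of 15.7, 9.51 and 10.9.

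Beyond the 8 genes, 7 lists of further calcium genes held 136 entries, of which 100 were tested. None was called by limma, with the block or by limma-voom. At an unadjusted *p* of 0.05 or less limma gave 6 higher and 2 lower in *tbx5a*+ cells, against 4.62% and 2.44% of all tested genes. The median log2 fold change of the 100 was 0.10, with 57 above 0. The list of release channels and junction proteins held 4 of these 8 genes, of which 3 were higher (*ryr3*, *jph1a* and *jph2*) and 1 was lower (*ryr1b*) in *tbx5a*+ cells, and its median over 14 tested genes was 0.01.

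Among the other ryanodine receptors, *ryr1b* and *ryr3* had fold changes of opposite sign, and neither was called. *ryr1b* (ENSDARG00000023797), a copy of the receptor known from skeletal muscle, was at 1306, 2378, 2069 and 1910 in *tbx5a*+ libraries, against 2323, 3115, 4448 and 4584 in *tbx5a*- libraries. It was lower in *tbx5a*+ cells in 4 of 4 pairs (background 5.38%), and the groups met only where *tbx5a*+ replicate 8 lay just above *tbx5a*- replicate 2. The log2 fold change was -0.90 (-1.38 to -0.41; adjusted *p* = 0.21 from limma). Over the alternatives its adjusted *p* ran from 0.0046 to 0.70. The lowest was that with the block, which 64 of all tested genes (0.461%) reached at 0.05 or less, but its size stayed under the fold change of 1 that a call requires. The fold change was -1.01 without *tbx5a*- replicates 2 and 9. Of the smooth muscle list, *acta2* and *tagln* were also lower in *tbx5a*+ libraries. So were *cnn1b* (log2 fold change -2.43) and *notch3* (-2.985), neither of them called, and the tested MYH11 gene was at -0.366. RGS5, *elnb* and the MYLK and LMOD1 genes were at or near 0 throughout. Of the skeletal muscle list, *ckmb* reached 36.7 in *tbx5a*+ and 5.11 in *tbx5a*- libraries (log2 fold change 3.455, not called). *actn3a* reached 19.75 and 11.16, and the others apart from *ckma* at most 11.3. The part of other cells in the value of *ryr1b* was not tested.

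*ryr3* (ENSDARG00000071331), the third type of ryanodine receptor, was at 1044, 844.0, 688.3 and 1107 in *tbx5a*+ libraries and at 519.1, 456.6, 488.2 and 675.0 in *tbx5a*- libraries. The lowest *tbx5a*+ library was above the highest *tbx5a*- library, as was so for 2.32% of tested genes (*p* = 0.0286 by exact permutation, which 4 against 4 cannot go below), with a log2 fold change of 0.78 (0.27 to 1.28) that did not pass the adjusted test (adjusted *p* = 0.44 from limma, 0.12 with the block and up to 0.95 over the alternatives). *jph1a* and *jph2* encode junctophilins, which hold the store against the cell membrane. *jph1a* (ENSDARG00000058603) averaged 2015 ± 290 in *tbx5a*+ and 1300.0 ± 425 in *tbx5a*- cells (mean ± SD of 4 libraries each), with a log2 fold change of 0.68 and an adjusted *p* of 0.51 (limma). It was higher in 3 of 4 pairs, with replicate 10 at -0.07 on the log2 scale, and its fold change was 0.31 without *tbx5a*- replicates 2 and 9. *jph2* (ENSDARG00000028625) averaged 500.8 ± 223 in *tbx5a*+ and 272.3 ± 77.5 in *tbx5a*- cells (mean ± SD of 4 libraries each), was higher in 4 of 4 pairs, and had a log2 fold change of 0.78 (adjusted *p* = 0.68 from limma).

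**Figure D4:**
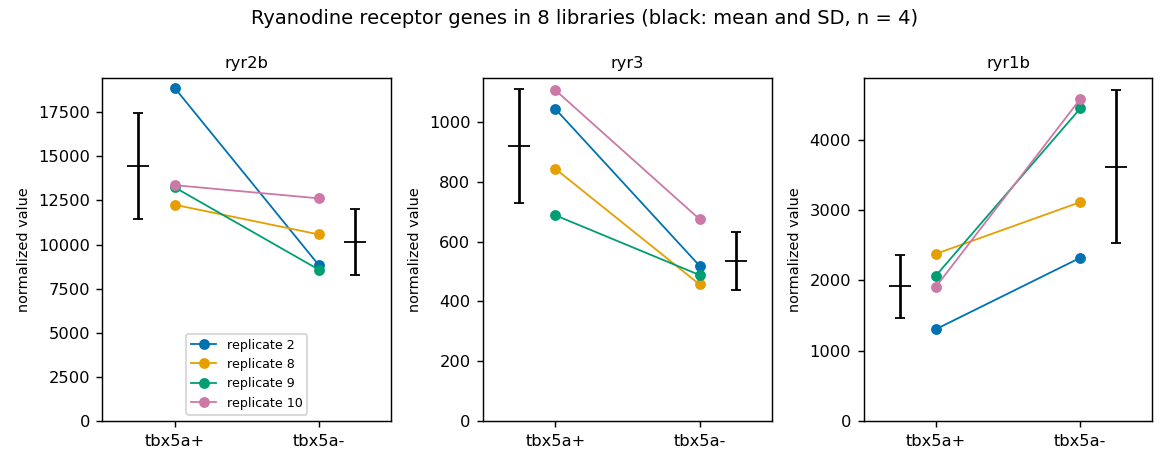
Normalised values (y axis, linear, a separate range in each panel) of the ryanodine receptor genes *ryr2b*, *ryr3* and *ryr1b* in *tbx5a*+ (left) and *tbx5a*- libraries (right), with pairs as coloured lines and the mean and SD in black (*n* = 4). *ryr2b* and *ryr3* are higher in *tbx5a*+ libraries in all 4 pairs and *ryr1b* is lower in all 4, and only for *ryr3* do the groups not overlap.

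Of the other pumps and exchangers, 8 of 16 entries were tested, and *atp2b4* (ENSDARG00000044902), a calcium pump of the cell membrane, was the only one at an unadjusted *p* of 0.05 or less. It was at 42.1, 53.0, 46.8 and 98.8 in *tbx5a*+ libraries, against 330.1, 76.6, 129.2 and 127.1 in *tbx5a*- libraries. It was lower in *tbx5a*+ cells in every pair, most in replicate 2, and *tbx5a*+ replicate 10 lay above *tbx5a*- replicate 8, with a log2 fold change of -1.32 (-2.39 to -0.24; adjusted *p* = 0.62 from limma) that came to -0.79 without *tbx5a*- replicates 2 and 9. The *tbx5a*- library of replicate 2 also held the highest sums of endothelial, fibroblast and leukocyte markers. The part of such cells in the value of *atp2b4* was not tested. *hrc* (ENSDARG00000045947), the histidine-rich calcium-binding protein of the store, averaged 1917 ± 567 in *tbx5a*+ and 1679 ± 403 in *tbx5a*- cells (mean ± SD of 4 libraries each), with a log2 fold change of 0.18 (adjusted *p* = 0.89 from limma) that turned to -0.02 without *tbx5a*- replicates 2 and 9.

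**Figure D5:**
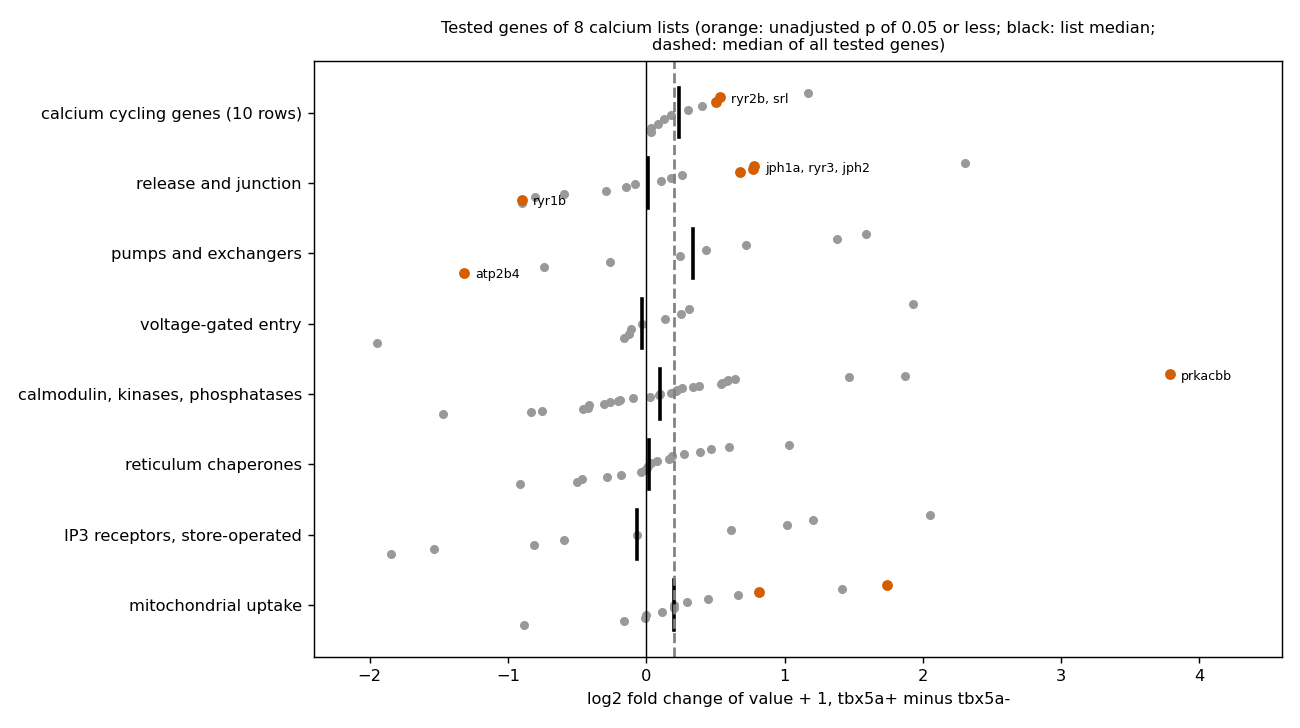
Log2 fold change (x axis, *tbx5a*+ minus *tbx5a*-) of every tested gene of the calcium cycling list (top) and of 7 further calcium lists (y axis; spread up and down by rank for legibility). Orange points have an unadjusted *p* of 0.05 or less in limma, black bars are list medians and the dashed line is the median of all tested genes at 0.20; the medians of the 7 further lists lie between -0.07 and 0.34.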

How the data were processed

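Each library started from 0.6 ng of RNA, was built and amplified in 2 rounds with an Ovation single-cell kit, and was sequenced in single reads of 60 bases. The authors trimmed reads with cutadapt, estimated counts per gene with RSEM and tested them with EdgeR. According to the methods, RSEM was v1.2.25, cutadapt was 1.9.1 and the transcripts were those of Ensembl release 82. The build Zv9, CASAVA 1.8.2 and RSEM 1.2.3 stand in the submitters' processing notes instead, so no coordinates are given. The table the authors deposited holds a normalised signal per gene and library, not counts. Values below 60 were spaced by the value of 1 read, and 71.1% to 77.7% of them per library lay within 0.0051 of a whole multiple. The rest did not, so counts were not fully recovered and the main test used no count model. Limma-voom on estimated reads was run as an alternative. Estimated reads are values divided by that spacing, and for the 8 genes they ran from 318 (*atp2a2b*) to 38162 (*pln*) per library. Near-identical gene copies can share reads, which RSEM divides by estimation.

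The test covered the genes that reached 1 CPM in 2 or more libraries (13895 of 31388; 11390 were at 0 in every library) and used log2(value + 1) limma (version 3.58.1, R 4.3.3) and a trend of variance on mean. The scripts were tested on simulated data. Exact permutation tests used Python 3.11.15 with scipy 1.17.1. The members of the list, the further calcium lists, the marker lists and the tests were chosen with earlier results of these data known. Symbols came from a table of Ensembl gene names, from the symbols in a supplementary table of the study, and from RefSeq synonyms, and capitals mark a symbol borrowed from the human gene. The ratio of *ryr2a* to *ryr2b* could not be computed, and that of *casq2* to *casq1b* used the sum of both CASQ1 genes. Besides the 8 genes, those named are the further calcium genes at an unadjusted *p* of 0.05 or less (1 is not reported here), the 2 tested genes with the highest mean of each further list, and the 3 genes with the highest Pearson's *r* to *pln* and to *atp2a2a*, the members with the highest means apart from length.

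The labels number the pairs and each replicate is a pool of hearts, from which the pairing was taken. Deviations from the group means correlated across genes by 0.089, 0.0584, 0.0428 and 0.0763 between the libraries of replicates 2, 8, 9 and 10. Between *tbx5a*+ and *tbx5a*- libraries of unlike number, the correlations ran from -0.0733 to 0.0338. Alternatives were pseudocounts of 0.5 and 5, no filter, upper quartile and median-ratio scaling, limma-voom on estimated reads, robust limma, the replicate block and each library left out in turn. Leaving out *tbx5a*- replicates 2 and 9 together was chosen after seeing the data.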

Additional observations from a re-analysis of the deposited data

Results flagged for a closer look

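*ryr2b* in the *tbx5a*+ library of replicate 2, at a normalised value of 18884, stood apart from the other 3 *tbx5a*+ libraries, which were between 12254 and 13365. The gap to its nearest neighbour was 0.832 of the range of the group, just above Dixon's 95% critical value for 4 libraries. It was the only such value in 74 groups of 4 libraries that were checked, and chance flags about 1 in 20. Without this library the log2 fold change of *ryr2b* was 0.37, against 0.51 with it.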

How the results depend on the processing

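None of the 8 genes, the CASQ1 genes or the further calcium lists was called under any of the 17 alternatives. Over these, *ryr2b* stayed between 0.30 and 0.70 on the log2 scale, *srl* between 0.32 and 0.73, *slc8a1a* between 0.24 and 0.60, *casq2* between 0.19 and 0.49, *atp2a2a* between 0.03 and 0.32, *ryr3* between 0.68 and 0.97 and *ryr1b* between -1.09 and -0.70. The median of all tested genes was 0.20, and it was 0.375 with upper quartile and 0.14 with median-ratio scaling and 0.04 without *tbx5a*- replicates 2 and 9. The median of the 8 genes was 0.24, and it was 0.43, 0.18 and 0.31 under the same settings. With a pseudocount of 5 the median was 0.13 for all tested genes and 0.239 for the 8 genes.

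The sign of small fold changes turned with scaling: with median-ratio scaling *trdn* was -0.03, *pln* -0.031 and CALM2 -0.039, and with upper quartile scaling PPP1CB was 0.094, NUCB2 (ENSDARG00000036299) 0.01 and VDAC1 0.03. Without *tbx5a*- replicates 2 and 9, *atp2a2b* was -0.28, *hrc* -0.016, ATP2C1 -0.38, CACNA1G -0.13, CALM2 -0.072 and PPP1CB 0.035. With 1 library left out in turn, the ranges that crossed 0 were -0.14 to 0.18 for *trdn*, -0.042 to 0.228 for CASQ1 ENSDARG00000018105, -0.013 to 0.44 for *atp2a2b*, -0.016 to 0.09 for *pln*, -0.003 to 0.32 for *hrc*, -0.32 to 0.97 for ATP2C1, -0.016 to 0.24 for CACNA1G, -0.12 to 0.19 for CALM2 and -0.22 to 0.039 for PPP1CB. The ratios of *pln* to *atp2a2a* (-0.22 to 0.022), *atp2a2a* to *atp2a2b* (-0.37 to 0.22) and *casq2* to CASQ1 (-0.05 to 0.42) crossed 0 likewise. The cause was not tested.

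Of all tested genes, 1 was called higher in *tbx5a*+ cells, against 3 with a pseudocount of 5, 3 with limma-voom, 3 with robust limma, 19 with the replicate block and 1 to 8 with 1 library left out. Lower calls numbered 26, against 39 with the replicate block, 18 to 25 with 1 library left out and 5 without *tbx5a*- replicates 2 and 9, where fewer libraries were compared. The pairing changed no call among the calcium genes. CASQ1 ENSDARG00000038716 was at about 1 read in its lowest library, whereas each of the 8 genes had 318 or more estimated reads in every library.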

Other observations

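The remaining calcium lists were measured as well and none of their genes was called by limma, with the block or by limma-voom. In voltage-gated calcium entry, 9 of 21 entries were tested, with a median log2 fold change of -0.03 and none at an unadjusted *p* of 0.05 or less. CACNA1C, the pore of the L-type channel that triggers release, averaged 1572 ± 500 in *tbx5a*+ and 1267 ± 417 in *tbx5a*- cells (mean ± SD of 4 libraries each; log2 fold change 0.31, limma adjusted *p* = 0.78). Its fold change was 0.06 without *tbx5a*- replicates 2 and 9. CACNA1G, a T-type channel, averaged 2598 ± 686 in *tbx5a*+ and 2350 ± 529 in *tbx5a*- cells (mean ± SD of 4 libraries each; log2 fold change 0.14, adjusted *p* = 0.92). Among 29 tested genes of calmodulin, kinases and phosphatases the median was 0.10. CALM2 had a log2 fold change of 0.02 and PPP1CB, a catalytic subunit of the phosphatase known to act on phospholamban, one of -0.10. *prkacbb* (ENSDARG00000098844), a catalytic subunit of protein kinase A, was at 106.0, 90.9, 68.2 and 156.2 in *tbx5a*+ libraries, against 1.70, 0.0, 22.3 and 45.5 in *tbx5a*- libraries, so that the groups did not overlap (background 2.32%). Its adjusted *p* was 0.29 (limma), and a fitted fold change of a gene so close to 0 depends on the added 1. A further entry with the symbol *prkacbb* was not matched to the list, and its values are not given.

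The list of reticulum chaperones and further calcium-binding proteins (18 tested) had a median log2 fold change of 0.02. In it HSPA5 was at 0.27 and NUCB2 (ENSDARG00000036299) at -0.18. With 1 library left out HSPA5 ran from 0.065 (without *tbx5a*- replicate 2) to 0.54. IP3 receptors and store-operated entry (9 tested) had a median of -0.07, with ITPR1 (ENSDARG00000074149) at 0.62 and TMCO1 at -0.59. With 1 library left out, ITPR1 ran from 0.058 (without *tbx5a*- replicate 8) to 0.99 and TMCO1 from -1.11 (without *tbx5a*- replicate 2) to -0.35. The Golgi calcium pump ATP2C1 was at 0.25. In mitochondrial calcium uptake all 13 entries were tested, with a median of 0.20, near that of all tested genes. VDAC3 (ENSDARG00000021564), a channel of the outer mitochondrial membrane, averaged 618.4 ± 85.9 in *tbx5a*+ and 371.3 ± 141 in *tbx5a*- cells (mean ± SD of 4 libraries each; log2 fold change 0.81, adjusted *p* = 0.57 from limma). Its groups did not overlap (background 2.32%), and its fold change was 0.55 without *tbx5a*- replicate 9 and 0.34 without *tbx5a*- replicates 2 and 9. A further entry with the symbol VDAC3 was likewise left out of the list. The fold changes of VDAC2 and VDAC1, whose values were larger before any correction for length, were 0.20 and -0.16 on the log2 scale.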
